A study of Mus musculus with 2 samples.

Results

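Colony-stimulating factors are secreted proteins that keep myeloid cells alive and direct their division and maturation, and the 8 genes described here encode 4 such ligands and the 4 receptor chains that read them. They were chosen by symbol, Csf1, Il34, Csf2 and Csf3 for the ligands and Csf1r, Csf2ra, Csf2rb and Csf3r for the receptors, and each matched 1 of the 24984 gene symbols listed for each library. The data are droplet-based single-cell RNA-seq (10x Chromium) of hind limb muscle of mdx mice, a model of Duchenne muscular dystrophy that lacks dystrophin, with 1 library labelled Ctrl and 1 labelled dKO. Each library pooled live sorted cells of 3 mice. Ctrl mice were Pax7CreERT2/R26YFP; Yy1+/+; mdx and dKO mice Pax7CreERT2/R26YFP; Yy1f/f; mdx, both from crosses with the C57BL/10 ScSn DMDmdx strain and both given tamoxifen (TMX, 100 mg/kg, intraperitoneally) at 1.5 months of age, with muscle taken 1 month later. TMX switches on the Cre recombinase in Pax7-expressing muscle stem cells (MuSCs), so the floxed Yy1 gene is cut there and not in the stromal, endothelial and immune cells in which the 8 genes were mainly found.

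CSF1 (M-CSF) and IL-34 are both ligands of the receptor tyrosine kinase CSF1R, which monocytes and macrophages (MO/MP) need to survive. CSF2 (GM-CSF) is bound by CSF2RA, which signals only together with the common beta chain CSF2RB, a chain shared with the receptors of IL-3 and IL-5. CSF3 (G-CSF) acts on CSF3R and drives the production and release of neutrophils. In damaged muscle the ligands are known products of stromal and endothelial cells, among them the fibro-adipogenic progenitors (FAPs), while the receptors sit mainly on myeloid cells.

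Counts were of unique molecular identifiers (UMIs), tags that mark single captured mRNA molecules, and the raw totals were 45556596 for Ctrl and 33815155 for dKO, and 4010 and 3079 cells were kept, with median depths of 7880 and 7806 UMIs per cell. The libraries shared 7 barcodes. UMIs were summed per cell class and are given as CPM, the count per 1000000 UMIs of that class and library, with the exact 95% Poisson interval in parentheses. With 1 library per genotype no test was possible: intervals cover counting error only, not differences between mice, and a dKO to Ctrl ratio compares these libraries, not the genotypes. Genotype and library preparation cannot be told apart. The deletion check held for the labels: Yy1 in MuSC-like cells stood at 159.6 (144 to 177) CPM in Ctrl and 4.85 (1.00 to 14.2) CPM in dKO, from 369 and 3 UMIs, while in FAP-like cells it stood at 124 and 133 CPM.

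Cells fell into 22 clusters, made without using the 8 genes, and clusters were named from marker lists that hold none of them. The named classes, with their cells in Ctrl and dKO, were MO/MP-like (1057 and 816), cycling MO/MP-like (107 and 36), FAP-like (1136 and 1187), tenocyte-like (143 and 90), smooth muscle/pericyte-like (107 and 38), endothelial cell (EC)-like (465 and 179), lymphatic EC-like (18 and 13), MuSC-like (118 and 30), dendritic cell-like (115 and 102), neutrophil-like (98 and 36), T cell-like (118 and 138) and B cell-like (142 and 87). A cluster led by Fcna and Cd163 (245 and 182 cells) and one led by Dcstamp and Ear2 (117 and 133 cells) had all 12 MO/MP markers enriched but more markers of another class among their leading genes, so they are given by their genes, as Fcna-led and Ear2-led cells.

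Csf1 (chromosome 3, 107741048-107760469, minus strand, GRCm38) was mainly a stromal transcript. FAP-like cells held 82.0% (80.9 to 83.0) of all Csf1 UMIs in Ctrl and 92.8% (92.1 to 93.4) in dKO, the parentheses giving exact binomial 95% intervals. The Csf1 level of FAP-like cells was 274 (266 to 283) CPM in Ctrl and 349.9 (341 to 359) CPM in dKO, from 4413 and 5829 UMIs. The dKO to Ctrl ratio was 1.27 (1.23 to 1.33), a difference larger than counting error but under 1.5-fold. Over all kept cells the ratio was 1.57 (1.51 to 1.62), from 132 and 207 CPM. FAP-like cells made up 28.3% of the Ctrl cells and 38.6% of the dKO cells, so the library-wide level moved with the share of FAP-like cells as well as with the level within them.

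All 4 FAP-like clusters had a higher Csf1 level in dKO. In the cluster led by Postn and Eln, matrix genes, Csf1 was at 264 and 336 CPM, a ratio of 1.27 (1.21 to 1.34). The Inmt- and C7-led cluster had the lowest level, 161 and 232 CPM, and a ratio of 1.44 (1.26 to 1.65). Cells of the Efhd1- and Pi16-led cluster stood at 313 and 429 CPM, with a ratio of 1.37 (1.21 to 1.55). In the Cxcl5-led cluster, which also carried cell-cycle genes among its leading genes, Csf1 was high in both libraries, 383 and 409 CPM, and the ratio of 1.07 (0.990 to 1.15) had an interval that held 1. The difference was thus present within 3 of the 4 clusters.

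Detection per cell moved the same way. With each cell thinned to 2000 UMIs, 32.1% of FAP-like cells in Ctrl and 39.98% in dKO had a Csf1 UMI, and unthinned 71.5% and 78.7%, at median depths of 12090.5 and 12080 UMIs. Cells under 2000 UMIs, 63 and 54 in FAP-like cells, were left out of thinned shares. Of the dendritic cell-like cells, which held 2 and 3 UMIs of Csf1 before thinning, 0 had one after it in either library, which allows a thinned share of up to 2.78% and 3%, their median depths being 8866 and 8969.

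Outside the FAP-like cells, Csf1 was highest in neutrophil-like cells, at 227 (181 to 283) CPM in Ctrl and 529 (391 to 699.6) CPM in dKO. These values rest on 81 and 49 UMIs, spread over 30 of 98 and 17 of 36 cells, with at most 8 and 9 UMIs in a single cell. In Ctrl the FAP-like and neutrophil-like intervals overlapped, while in dKO the neutrophil-like level lay above that of FAP-like cells. The dKO to Ctrl ratio in neutrophil-like cells was 2.33 (1.60 to 3.36). The cells that carried a Csf1 UMI had a lower summed level of the 10 neutrophil markers than the rest, 156386 against 301030.3 CPM in Ctrl and 69233 against 198946 CPM in dKO, and about the same summed FAP markers, 586 against 653 and 606 against 586 CPM. Over all neutrophil-like cells the neutrophil markers summed to 253955 CPM in Ctrl and 145774 CPM in dKO, lower for 10 of 10, and their part in the ratio was not tested.

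Tenocyte-like cells (144 and 164 CPM) and EC-like cells (122 and 102 CPM) came next for Csf1, with overlapping intervals in Ctrl, and their ratios of 1.14 (0.915 to 1.41) and 0.834 (0.652 to 1.06) both had intervals that held 1. Over the alternatives the tenocyte-like ratio ran from 1.06 to 1.54, the upper end past 1.5-fold. Within the EC-like cells the clusters did not move alike. Csf1 stood at 163 and 69.5 CPM in the Selp- and Sele-led cluster, a ratio of 0.426 (0.263 to 0.661) from 133 and 24 UMIs, and at 103 and 140.4 CPM in the Gpihbp1-led cluster, a ratio of 1.36 (0.966 to 1.89). MuSC-like cells, the cells in which Yy1 was deleted, had 54.5 and 37.2 CPM from 126 and 23 UMIs, and the ratio of 0.682 (0.417 to 1.07) did not differ from 1 beyond counting error. The remaining named classes lay at 1.81 to 29.2 CPM in Ctrl and 3.23 to 31.3 CPM in dKO. In Fcna-led cells the 8 and 19 UMIs gave a ratio of 2.81 (1.18 to 7.43), but 14 of the dKO UMIs came from 1 cell and without the top cell of each library the ratio was 0.843.

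Il34 (chromosome 8, 110741829-110805924, minus strand), the second ligand of CSF1R, had another order of sources. Smooth muscle/pericyte-like cells had the highest level, 70.6 (53.6 to 91.2) CPM in Ctrl and 117 (76.9 to 169.7) CPM in dKO, from 58 and 27 UMIs in 44 of 107 and 13 of 38 cells. Tenocyte-like (13.8 and 24.8 CPM), FAP-like (12.9 and 8.28 CPM) and MuSC-like cells (9.95 and 17.8 CPM) followed, and neighbours among these did not differ beyond their counting intervals in Ctrl. EC-like cells had 6 and 0 UMIs. Immune classes held almost none: MO/MP-like cells had 1 and 1 UMIs among 10634864 and 6436729 UMIs, and neutrophil-like, T cell-like, B cell-like, dendritic cell-like, Fcna-led and Ear2-led cells had 0. For the 118 T cell-like cells of Ctrl a count of 0 allows up to 7.38 CPM, 3 counts of the class total.

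Although lower per cell, FAP-like cells were so numerous that they held 64.1% of the Il34 UMIs of Ctrl and 69.3% of those of dKO, against 18.0% and 13.6% for smooth muscle/pericyte-like cells. Il34 in FAP-like cells was lower in dKO, 8.28 (6.96 to 9.79) against 12.9 (11.2 to 14.8) CPM, from 138 against 207 UMIs, a ratio of 0.643 (0.515 to 0.802). The 10 smooth muscle/pericyte markers of FAP-like cells summed to 190.2 and 153 CPM, lower for 7 of 10 in dKO. FAP-like cells with an Il34 UMI held more of them than those without, 250.0 against 179 CPM in Ctrl and 424 against 113 CPM in dKO, and the part of these markers' source in the Il34 ratio was not tested. The ratio lay below 1 in the Postn-led cluster (0.684, 0.509 to 0.916), the Cxcl5-led cluster (0.573, 0.372 to 0.876) and the Inmt-led cluster (0.606, 0.285 to 1.23, an interval that held 1). In smooth muscle/pericyte-like cells the ratio was above 1, 1.65 (1.01 to 2.65), with a lower bound close to 1. The thinned shares there were 18.2% and 12.9% of cells, lower in dKO although the CPM was higher, so no direction is read from this class. Csf1 and Il34 thus differed in opposite directions in FAP-like cells, Csf1 higher and Il34 lower in dKO.

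Csf2 (chromosome 11, 54247271-54249667, minus strand) was scarce, with 61 and 8 UMIs among all kept cells of Ctrl and dKO. T cell-like cells had 13 and 1 UMIs, which is 32.0 and 2.05 CPM, in 5 of 118 and 1 of 138 cells. FAP-like cells had 46 and 7 UMIs, which is 2.86 and 0.420 CPM, in 7 of 1136 and 6 of 1187 cells. All other classes together held 2 UMIs in Ctrl and 0 in dKO. The FAP-like ratio was 0.147 (0.0559 to 0.327), but the number of FAP-like cells with a Csf2 UMI was close in both libraries. The difference lay in 36 UMIs that 3 Ctrl cells held, where no dKO cell held more than 2. Of the Ctrl UMIs, 30 were in the Cxcl5-led cluster and 16 in the Postn-led cluster. The 7 Ctrl cells with a Csf2 UMI had 27765 CPM of summed FAP markers against 51461 in the rest and 10.2 CPM of summed T cell markers against 0.567. In dKO the 6 cells with a Csf2 UMI had 45348 CPM of FAP markers against 46672 in the rest and 0 CPM of T cell markers against 0.604. Il5, a cytokine read through the same beta chain, was also found in T cell-like cells, with 69 UMIs in 5 Ctrl cells and 2 UMIs in 1 dKO cell, and 2 of the Ctrl cells held both cytokines. The T cell-like class also held cells of other kinds, with the 7 NK cell markers summing to 2421 and 2488 CPM and the 7 mast cell markers to 49.2 and 824 CPM, beside 1811 and 1936 CPM for the T cell markers.

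Csf3 (chromosome 11, 98701263-98703629, plus strand) was an endothelial transcript in both libraries. EC-like cells held 88.9% (87.0 to 90.7) of its UMIs in Ctrl and 91.5% (89.1 to 93.4) in dKO. Their Csf3 level was 375 (352 to 399) CPM in Ctrl and 737 (681 to 796) CPM in dKO, from 997 and 642 UMIs, a ratio of 1.97 (1.78 to 2.17). Nearly all of it came from the cluster led by Selp and Sele, adhesion molecules of activated endothelium, which had 109 cells in Ctrl and 50 in dKO and 966 and 629 UMIs of Csf3. Csf3 itself was the third of the genes that mark that cluster, although it was not used to form it. Within the cluster the level was 1186 and 1821 CPM, a ratio of 1.54 (1.39 to 1.70). The cluster led by Gpihbp1, a lipase anchor of capillaries, had 15.7 and 29.3 CPM from 24 and 10 UMIs.

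Few endothelial cells carried most of the Csf3 UMIs. A Csf3 UMI was found in 52 of 465 EC-like cells of Ctrl and 39 of 179 of dKO, and 1 cell alone held 312 UMIs in Ctrl and 142 in dKO. Without that cell in each library the ratio was 2.24. Thinned to 2000 UMIs, 9.55% of EC-like cells in Ctrl and 21.7% in dKO had a UMI (11.2% and 21.8% unthinned, at median depths of 4671 and 3802, with 67 and 36 cells left out). Of the tenocyte-like cells, which held 0 and 1 UMIs of Csf3 before thinning at median depths of 9489 and 9888, 0 had one after it, which allows a thinned share of up to 2.14% in Ctrl and 3.80% in dKO. EC-like cells were 11.6% of Ctrl and 5.81% of dKO cells, and over all kept cells Csf3 stood at 27.5 and 23.1 CPM.

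**Figure D1:**
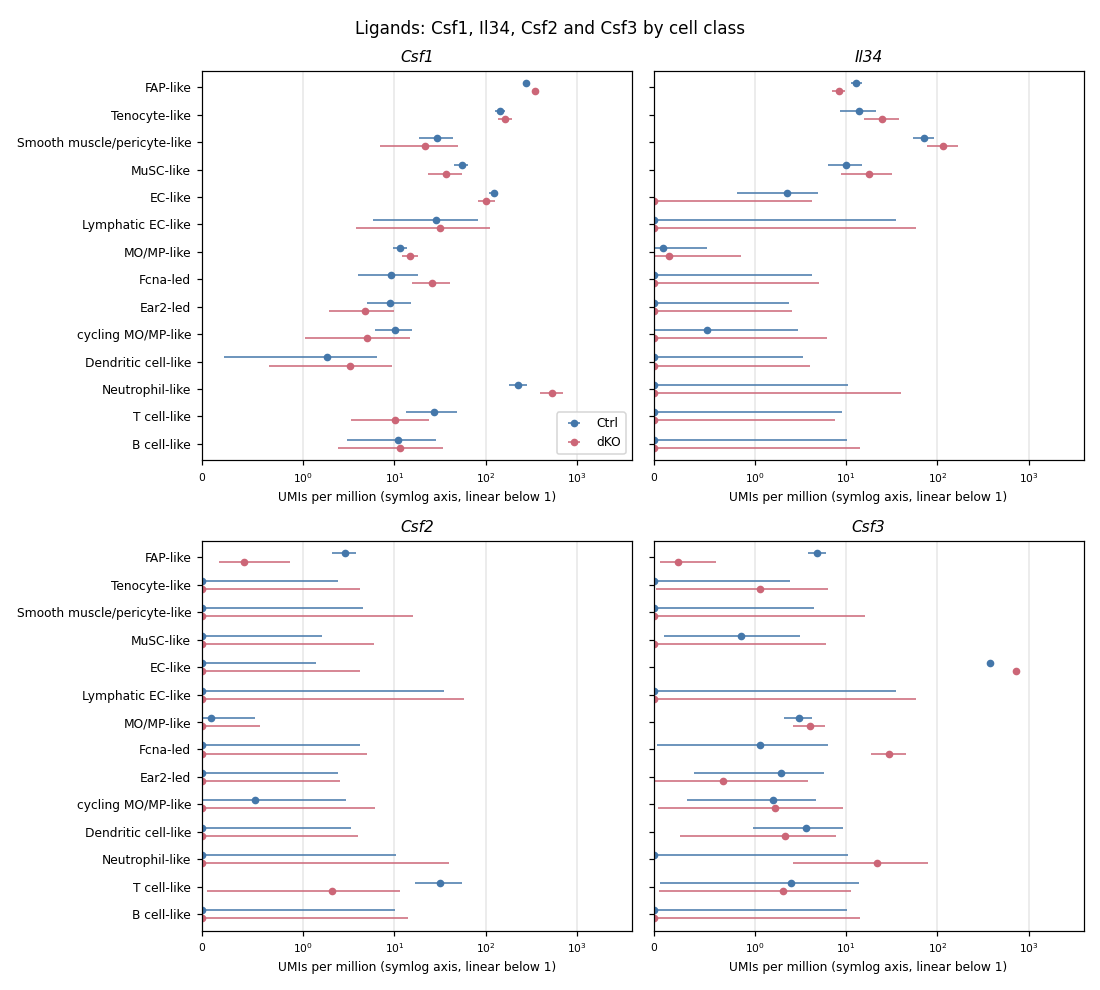
Levels of the 4 ligands in 14 cell classes of Ctrl (blue) and dKO (red), in CPM on a symlog axis, with exact 95% Poisson intervals. Csf1 peaked in FAP-like and neutrophil-like cells, Il34 in smooth muscle/pericyte-like cells, and Csf3 stood at 375 and 737 CPM in EC-like cells.

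FAP-like cells differed in Csf3 the other way, with 77 and 4 UMIs, which is 4.79 (3.78 to 5.99) CPM in Ctrl and 0.240 (0.0654 to 0.615) CPM in dKO, a ratio of 0.0501 (0.0133 to 0.134). Of the Ctrl UMIs, 50 sat in 1 cell and 70 in 3 cells, and 10 of 1136 cells of Ctrl against 4 of 1187 of dKO had any. The Ctrl cells with a UMI had 327 CPM of summed EC markers against 19.6 CPM in the other FAP-like cells, and a median depth of 25988 against 12068 UMIs. Over all FAP-like cells the 12 EC markers summed to 24.2 CPM in Ctrl and 9.84 CPM in dKO, lower for 11 of 12, and the part of endothelial RNA in the Csf3 difference was not tested. Where no doublets were removed the ratio was 0.371, and under the filter of at least 200 genes and 1000 UMIs it was 0.288. In Fcna-led cells Csf3 had 1 and 22 UMIs, in 1 of 245 and 8 of 182 cells, a ratio of 26.1 (4.21 to 1076) whose wide interval reflects the single Ctrl UMI. It rests on fewer than 50 UMIs, and without integration it was 11.8. The 8 dKO cells had 0 CPM of summed EC markers. MO/MP-like cells had 3.01 and 4.04 CPM, a ratio of 1.34 (0.768 to 2.32) that was 2.26 at resolution 1.2, where the Fcna-led cluster was counted with them, and neutrophil-like cells 0 and 2 UMIs.

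**Figure D2:**
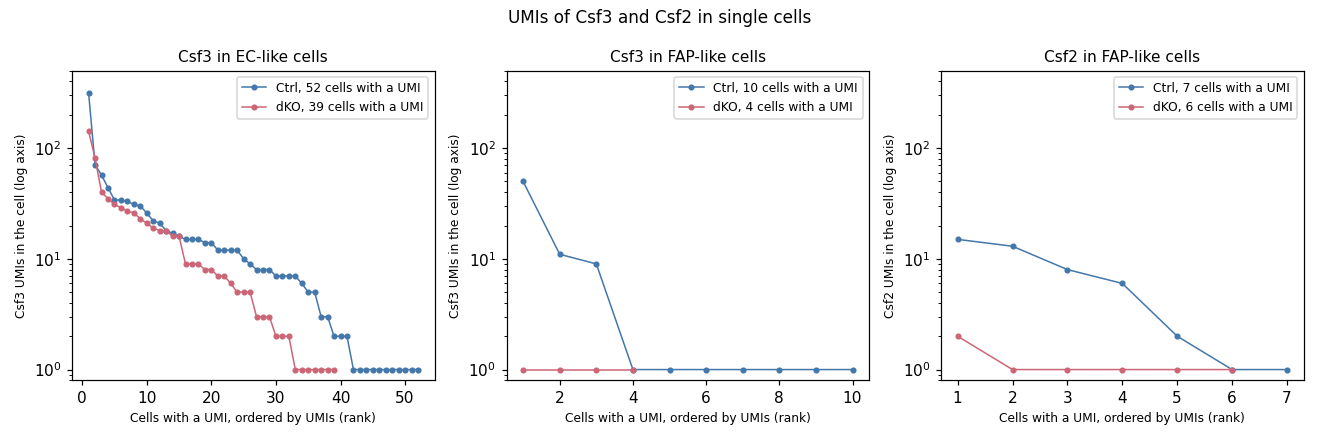
UMIs of Csf3 or Csf2 in each cell that had at least 1, ordered from most to fewest, in EC-like and FAP-like cells of Ctrl (blue) and dKO (red), on a log axis. In FAP-like cells 3 Ctrl cells held 70 of 77 Csf3 UMIs, while in EC-like cells 52 Ctrl and 39 dKO cells had a UMI.

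Csf1r (chromosome 18, 61100598-61132149, plus strand) was confined largely to MO/MP lineages in both libraries. MO/MP-like cells held 74.2% (73.1 to 75.2) of its UMIs in Ctrl and 71.6% (70.2 to 73.0) in dKO, and Fcna-led, Ear2-led and cycling MO/MP-like cells most of the rest. Fcna-led cells, whose leading genes Cd163 and Lyve1 are known from resident macrophages, had the highest level, 937 (874 to 1003) CPM in Ctrl and 688 (629.6 to 751) CPM in dKO. MO/MP-like cells followed at 518 (505 to 532) CPM in Ctrl and 457 (441 to 474) CPM in dKO, Ear2-led cells at 359 and 334 CPM and cycling MO/MP-like cells at 199 and 141 CPM, and neighbouring intervals in this order did not overlap in Ctrl. Neutrophil-like cells had 78.6 and 151 CPM and dendritic cell-like cells 52.4 and 36.6 CPM. All other classes lay at 12.2 CPM or less in Ctrl and 3.87 CPM or less in dKO. After thinning, 58.5% of MO/MP-like cells in Ctrl and 52.6% in dKO had a UMI (unthinned 85.2% and 78.7%, at median depths of 8650 and 7239), against 0.466% and 0.265% of FAP-like cells.

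The Csf1r level was lower in dKO in each MO/MP group, by less than 1.5-fold in the main setting. Ratios were 0.882 (0.843 to 0.923) in MO/MP-like cells, 0.735 (0.656 to 0.822) in Fcna-led cells, 0.709 (0.553 to 0.901) in cycling MO/MP-like cells and 0.932 (0.824 to 1.05) in Ear2-led cells, where the interval held 1. Over the alternatives the cycling MO/MP-like ratio ran from 0.661, past 1.5-fold, to 0.946. In Fcna-led cells the markers of other types differed too, those of mast cells summing to 638 and 174 CPM, of neutrophils to 127 and 16.3 CPM and of erythroid cells to 75.6 and 300.0 CPM, beside 33739 and 32699.8 CPM of MO/MP markers, and their part in the ratio was not tested. The cycling class differed in granulocyte content, its summed neutrophil markers being 26169.7 CPM in Ctrl and 381 CPM in dKO, and the part of this in its values was not tested. Among the MO/MP-like clusters the Apoe-led one, with complement genes among its leading genes, had the highest Csf1r level, 817 and 687 CPM, a ratio of 0.841 (0.789 to 0.897). The Slpi-led cluster, which includes the monocyte marker Ly6c2 among its leading genes, had 311 and 240.0 CPM, a ratio of 0.773 (0.675 to 0.883). In the Spp1- and Syngr1-led cluster the level was 403 and 399 CPM and the ratio 0.991 (0.921 to 1.07). With the Fcna-led and Ear2-led clusters counted as MO/MP-like cells the ratio was 0.865, a setting added after seeing the data. So while Csf1 was higher in FAP-like cells of dKO, the transcript of its receptor was at or below the Ctrl level in these groups.

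Csf2ra (chromosome 19, 61223957-61228429, minus strand), the ligand-specific chain of the GM-CSF receptor, was found across the myeloid classes. Ear2-led cells, with Itgax and Mmp12 among their leading genes, had the highest level, 326 (299 to 356) CPM in Ctrl and 357 (327 to 389) CPM in dKO. Neutrophil-like (208 and 313 CPM), MO/MP-like (182 and 176 CPM), dendritic cell-like (154 and 178 CPM), Fcna-led (142 and 138 CPM) and cycling MO/MP-like cells (131 and 203 CPM) followed, with overlapping intervals between neighbours in Ctrl. The MO/MP-like ratio was 0.967 (0.898 to 1.04) and the Ear2-led ratio 1.09 (0.966 to 1.24), both with intervals that held 1. The ratio in cycling MO/MP-like cells, 36 of which were in dKO, was 1.55 (1.24 to 1.94). FAP-like cells were at 3.55 and 5.58 CPM, T cell-like and B cell-like cells at 0 and 12.3 CPM and 27.6 and 3.87 CPM, and thinned shares of FAP-like cells with a UMI were 1.58% and 1.15%.

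Csf2rb (chromosome 15, 78325752-78353847, plus strand), the common beta chain, has a close copy in the mouse, Csf2rb2 (chromosome 15, 78282507-78305721, minus strand), which encodes a beta chain used by the IL-3 receptor. Reads could be split between them, so their counts are uncertain. Over the coding sequence of the GENCODE M21 transcripts the copies were 92.9% identical in a global alignment, and 26.0% of the 50-base windows of Csf2rb recurred letter for letter in Csf2rb2. After the stop codon, where reads of a 3′ assay mostly fall, they were 69.4% identical and 3.96% of windows were shared.

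The first 120 coding bases, are shown because they are the first ungapped stretch of that length with the median number of differences. They run 5′ to 3′, with the 4 bases that differ in capitals (GENCODE M21, GRCm38, chromosome 15).
Csf2rb: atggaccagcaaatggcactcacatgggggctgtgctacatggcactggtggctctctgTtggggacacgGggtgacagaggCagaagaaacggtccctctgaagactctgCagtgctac
Csf2rb2: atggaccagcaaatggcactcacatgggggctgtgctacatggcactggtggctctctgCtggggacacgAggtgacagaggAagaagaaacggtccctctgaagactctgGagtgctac

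The highest Csf2rb levels were in dendritic cell-like cells, 411 (374 to 451) CPM in Ctrl and 458 (415 to 503) CPM in dKO, and Ear2-led cells, 411 (379.8 to 444) CPM in Ctrl and 380.4 (349 to 413) CPM in dKO. Neutrophil-like cells had 211 and 346 CPM, MO/MP-like cells 193 and 212 CPM and Fcna-led cells 76.7 and 66.5 CPM. Among MO/MP-like clusters the order was the reverse of that of Csf1r. The Slpi-led cluster had 289 and 380.4 CPM, the Spp1- and Syngr1-led cluster 220.2 and 213 CPM and the Apoe-led cluster 94.0 and 93.6 CPM. Only the Slpi-led cluster had a ratio whose interval lay off 1 among these, 1.31 (1.17 to 1.48), and the MO/MP-like ratio as a whole was 1.10 (1.03 to 1.18). In dendritic cell-like cells the ratio was 1.11 (0.974 to 1.27).

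EC-like cells also carried Csf2rb, at 180.3 (165 to 197) CPM in Ctrl and 223 (192 to 256) CPM in dKO, a ratio of 1.23 (1.04 to 1.46). The Selp-led cluster stood highest, at 388 and 368 CPM, above the Gpihbp1-led cluster at 97.7 and 149 CPM and the Cytl1-led cluster, with the connexins Gja4 and Gja5 among its leading genes, at 46.5 and 86.8 CPM. Csf2ra was at 1.88 and 2.29 CPM in the same EC-like cells. Of the EC-like cells with a Csf2rb UMI, 1.33% in Ctrl and 2.94% in dKO also had a Csf2ra UMI, against 74.9% and 63.9% of such MO/MP-like cells and 92.9% and 91.2% of such Ear2-led cells, unthinned. Il3ra, which encodes the ligand-specific chain of the IL-3 receptor, was present in EC-like cells at 32.3 and 43.6 CPM.

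EC-like cells with a Csf2rb UMI had EC markers at 11221 CPM in Ctrl and 11528 CPM in dKO, against 10698 and 11592 in those without. Their summed MO/MP markers were 1022 and 808 CPM, against 660.5 and 584 CPM in those without and 33349 and 35225 CPM in MO/MP-like cells. FAP-like cells, which should lack the chain, had 2.61 and 1.98 CPM. The share of the copy also differed by class. Where copies were told apart, Csf2rb2 made up 33.5% (30.1 to 37.1) of the UMIs of both genes in EC-like cells of Ctrl, 18.8% (17.3 to 20.3) in MO/MP-like cells, 13.2% (10.4 to 16.4) in dendritic cell-like cells and 3.85% (0.8003 to 10.8) in neutrophil-like cells. In dKO the EC-like value was 31.2% (25.8 to 37.0) and the MO/MP-like value 16.2% (14.5 to 18.1).

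**Figure D3:**
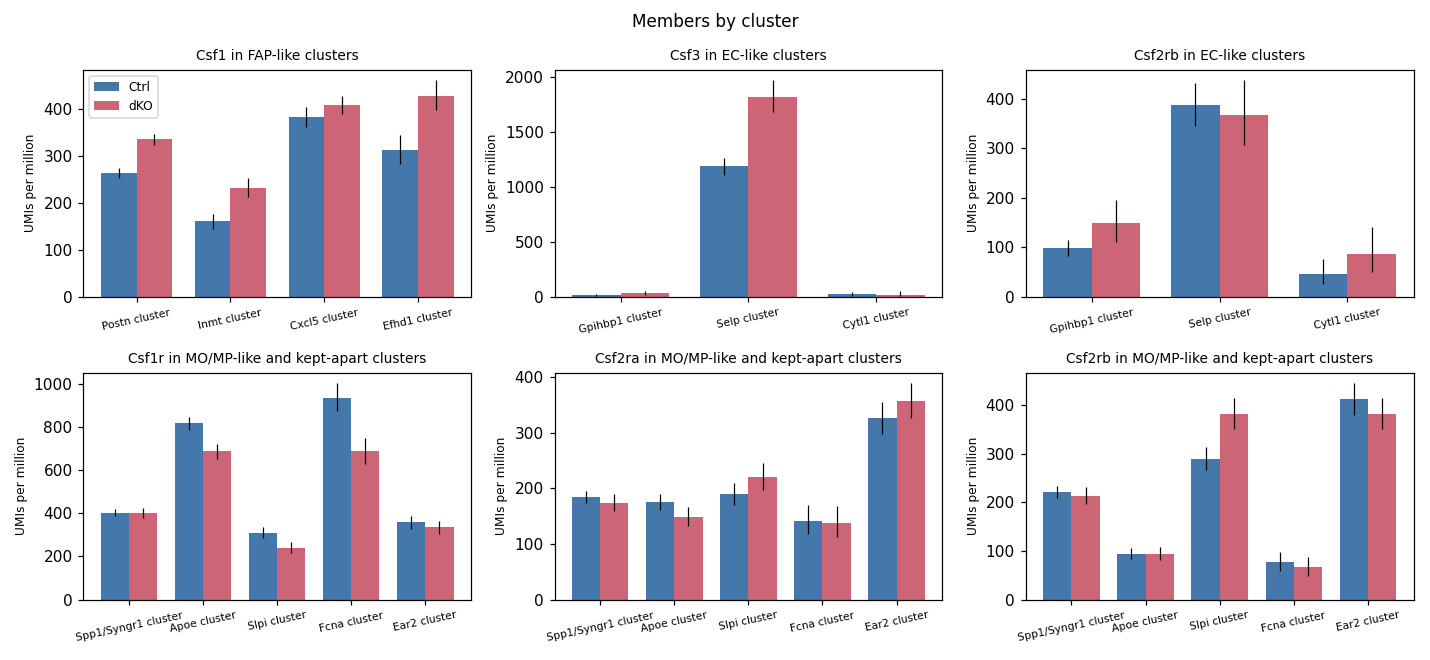
Levels of Csf1 in FAP-like clusters, Csf3 and Csf2rb in EC-like clusters, and Csf1r, Csf2ra and Csf2rb in the MO/MP-like, Fcna-led and Ear2-led clusters, named by a leading gene, in Ctrl (blue) and dKO (red). Bars are CPM from 0 and whiskers exact 95% Poisson intervals, and Csf1r was highest where Csf2rb was lowest, in the Apoe-led and Fcna-led clusters.

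Csf3r (chromosome 4, 126024550-126044440, plus strand), the G-CSF receptor, was highest in neutrophil-like cells, at 494 (424 to 573) CPM in Ctrl and 842 (666 to 1051) CPM in dKO. Next came Fcna-led cells (40.1 and 33.9 CPM) and MO/MP-like cells (35.8 and 50.3 CPM), which did not differ beyond counting error in Ctrl. FAP-like cells had 0.498 and 0.240 CPM. After thinning, 45.5% of neutrophil-like cells in Ctrl and 68.8% in dKO had a UMI (unthinned 69.4% and 80.6%, at median depths of 2385 and 1664, with 43 and 20 cells left out), against 0% and 0.0883% of FAP-like cells. Because MO/MP-like cells were far more numerous, they held 58.5% and 69.7% of all Csf3r UMIs against 27.0% and 16.8% for neutrophil-like cells.

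The Csf3r level was higher in dKO in both classes. The neutrophil-like ratio was 1.71 (1.29 to 2.24), from 176 and 78 UMIs, and the MO/MP-like ratio 1.41 (1.21 to 1.63), from 381 and 324 UMIs. Among MO/MP-like clusters it was past counting error in the Spp1- and Syngr1-led cluster, at 24.0 and 48.3 CPM, a ratio of 2.01 (1.57 to 2.58). The Apoe-led (1.06, 0.827 to 1.36) and Slpi-led (1.15, 0.831 to 1.59) clusters had ratios whose intervals held 1. Over the same MO/MP-like cells the 10 neutrophil markers were lower in dKO, 219 and 81.6 CPM summed, lower for 9 of 10. Within each library, however, the MO/MP-like cells with a Csf3r UMI held more of them than those without, 481 against 85.6 CPM in Ctrl and 166 against 34.2 CPM in dKO. Their MO/MP markers were at 40559.6 against 29673 and 39126 against 33029 CPM, and the part of neutrophil RNA in the Csf3r level was not tested.

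**Figure D4:**
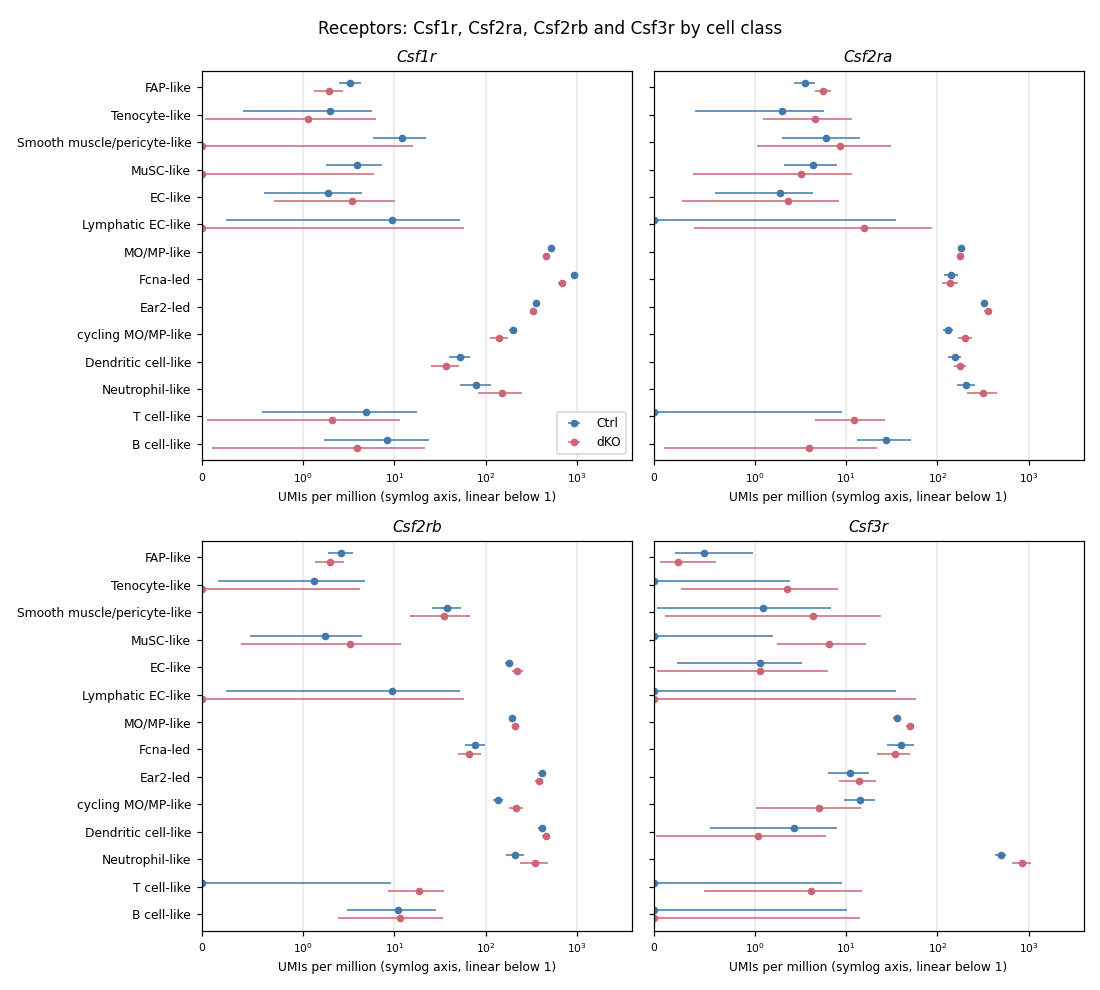
Levels of the 4 receptor chains in 14 cell classes of Ctrl (blue) and dKO (red), in CPM on a symlog axis, with exact 95% Poisson intervals. Csf1r peaked in Fcna-led cells, Csf3r in neutrophil-like cells, and Csf2rb but not Csf2ra reached EC-like cells, at 180.3 and 223 CPM.

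How often the members differed was read against all genes of a class. A gene was counted as past the fold when its CPM ratio was at least 1.5 in either direction and both libraries together held at least 50 UMIs in the class. In FAP-like cells 7 of the 8 members reached 50 UMIs. 1 of them, Csf2ra, was higher in dKO, against 3.25% of the 11521 genes counted, and 4, Il34, Csf2, Csf3 and Csf1r, were lower, against 4.11%. Of the lower ones, Csf2 (46 and 7 UMIs), Csf3 (77 and 4 UMIs) and Csf1r (53 and 32 UMIs) reached 50 UMIs mainly through the Ctrl library, where they were higher, so nothing is read from their number against that share. Over the alternatives the ratio of Il34 ran from 0.596 to 0.668 and that of Csf1r from 0.526 to 0.799, the upper ends being under 1.5-fold. Csf2ra had the thinned shares given above, lower in dKO although the CPM was higher, so no direction is read for it, and both it and Csf1r (3.30 and 1.92 CPM) were near the level of classes that should lack them. MO/MP-like cells had 6 members at 50 UMIs and 0 past the fold in either direction, apart from Csf3 in the settings that counted Fcna-led cells with them or left out the top cell, beside 5.54% of 9433 genes higher and 4.73% lower. In EC-like cells 1 of 3, Csf3, was higher and 0 lower, beside 5.84% and 11.2% of 6769 genes.

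All 4 members counted in neutrophil-like cells were higher in dKO, namely Csf1, Csf2ra (1.51, 0.946 to 2.35), Csf2rb (1.64, 1.05 to 2.51) and Csf3r, where 21.2% of 1191 genes were higher and 10.2% lower. The Csf2ra interval held 1, and as a mean over cells its ratio was 1.12. Beside the lower neutrophil markers given above, the 12 MO/MP markers of these cells summed to 5325 and 6793 CPM, higher for 10 of 12 in dKO, and their part in the ratios was not tested. The median log2 ratio was 0.74 over these members and 0.11 over all genes counted in the class. The 36 neutrophil-like cells of dKO held 92602 UMIs in all, which limits these ratios.

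**Figure D5:**
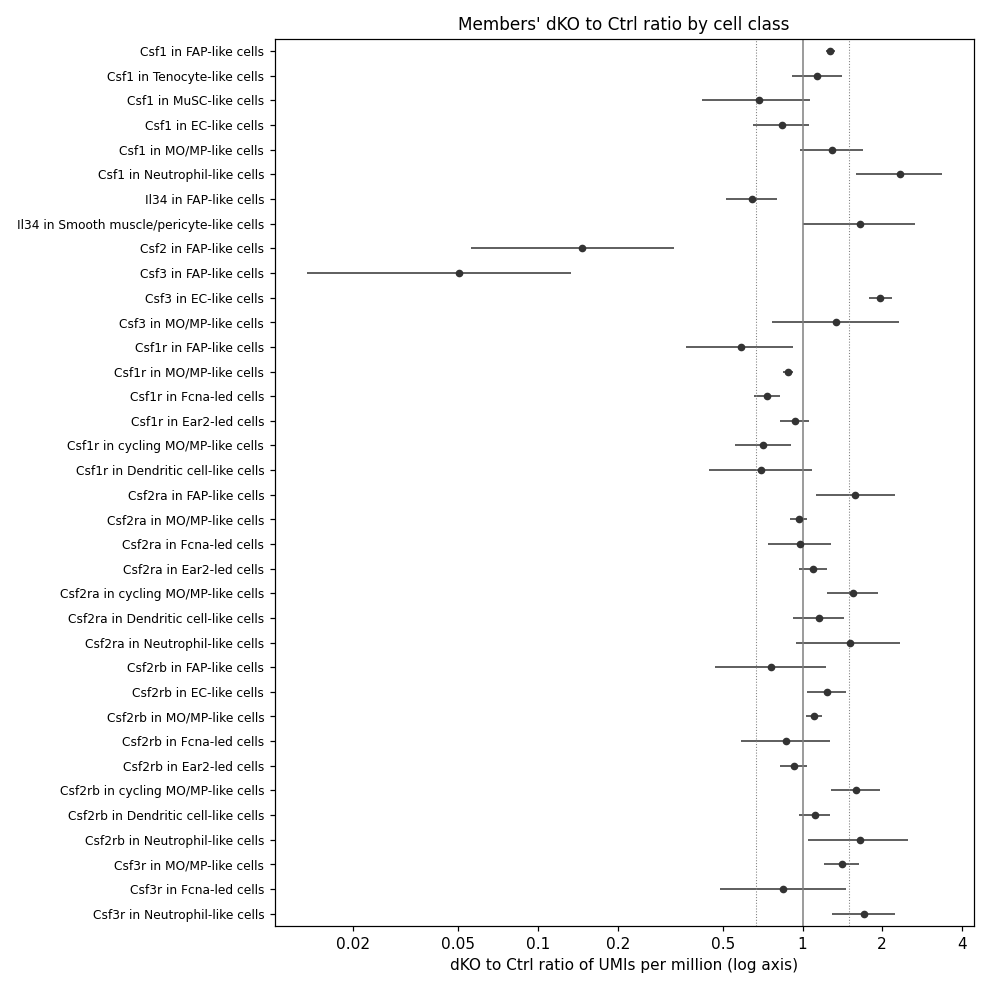
The dKO to Ctrl ratio of CPM for each member and class with at least 50 UMIs in both libraries together, on a log axis, with exact 95% intervals for counting error. The solid line marks 1 and the dotted lines 1.5-fold either way, and Csf2 (0.147) and Csf3 (0.0501) in FAP-like cells lie lowest.

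Genes that act around the receptors were followed through 6 lists, most fully counted in MO/MP-like cells. Of the 14 signalling genes all were counted, 2 were higher past the fold and 0 lower, with a median log2 ratio of 0.14 beside -0.01 for all genes. The higher ones were the feedback inhibitors Socs3 (75.4 and 174 CPM, a ratio of 2.31, 2.11 to 2.53) and Socs1 (6.77 and 13.5 CPM, ratio 1.996, 1.44 to 2.77). Among inducers of CSF production and their receptors, 3 of 7 counted were higher and 0 lower, beside 5.54% and 4.73% of all genes. These were Il1b (376 and 634 CPM, ratio 1.69, 1.62 to 1.76) and Tnf (65.8 and 112 CPM, ratio 1.70, 1.53 to 1.89), inflammatory cytokines that switch on Csf2 and Csf3 in stromal cells, and the IL-1 receptor Il1r1 (4.04 and 6.53 CPM, ratio 1.61, 1.03 to 2.53). Il1r1 was low there, with 43 and 42 UMIs, beside 65.8 and 115 CPM over all kept cells. The part of RNA from other classes in its ratio was not tested. Of the 4 counted genes known to be induced by GM-CSF only Irf4 (4.89 and 7.46 CPM, ratio 1.53, 1.01 to 2.30) was past the fold. The 8 counted myeloid transcription factors, the 2 counted genes of the beta chain family and the 1 other IL-34 receptor counted had none past the fold.

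In Ear2-led cells the same cytokines and Socs3 were higher in dKO, with Tnf at 25.2 and 121 CPM (4.79, 3.37 to 6.96), Il1b at 231 and 640.2 CPM (2.77, 2.45 to 3.13) and Socs3 at 42.01 and 114 CPM (2.71, 2.02 to 3.67). Klf4, a monocyte factor, was higher there too (128 and 269 CPM, ratio 2.10, 1.77 to 2.51). Fcna-led cells had lower Klf4 (472 and 307 CPM, ratio 0.650, 0.550 to 0.767) and higher Tnf (121 and 232 CPM, ratio 1.91, 1.49 to 2.46), and 0 of 11 signalling genes past the fold, beside 8.22% of all genes higher and 7.09% lower. In dendritic cell-like cells Ccl17, a chemokine induced by GM-CSF, was lower in dKO (39.7 and 12.9 CPM, ratio 0.325, 0.156 to 0.626) and Tnf higher (9.94 and 52.8 CPM, ratio 5.31, 2.72 to 11.3). The same cells had higher Il3ra (16.3 and 36.6 CPM, ratio 2.25, 1.24 to 4.24) and lower Csf2rb2 (62.3 and 34.5 CPM, ratio 0.553, 0.352 to 0.853), both of the beta chain family. Neutrophil-like cells had higher Pim1 (401 and 950.3 CPM, ratio 2.37, 1.79 to 3.11), a kinase induced by these cytokines, and higher Il1b (1429 and 2214 CPM, ratio 1.55, 1.31 to 1.83).

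Cycling MO/MP-like cells, in which Csf2ra and Csf2rb (1.59, 1.28 to 1.97) were higher and Csf1r lower in dKO, had 3 of 12 signalling genes higher and 0 lower, in a class where 11.2% of 5706 genes were higher and 10.1% lower past the fold. Alternatives took its ratios of Csf2ra and Csf2rb below 1.5-fold, to 1.18 under the filter of at least 200 genes and 1000 UMIs and to 1.19 as a mean over cells. That of Csf1r ran from 0.661 to 0.946, the highest with doublets kept. The higher signalling genes included the kinase Jak2 (36.0 and 75.4 CPM, ratio 2.10, 1.40 to 3.10) and Stat3 (68.3 and 153 CPM, ratio 2.23, 1.69 to 2.94), which carries the G-CSF signal. Cebpe was lower there (91 and 2 UMIs, ratio 0.0696, 0.00830 to 0.259), a factor of maturing granulocytes that reached 50 UMIs through the Ctrl library, where it was higher. The difference in neutrophil markers given above for this class stood beside these values too.

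In FAP-like cells the 10 signalling genes and 8 transcription factors counted had 0 past the fold, and of 6 inducers and their receptors counted only Tnf was higher, at the low level of 1.80 and 3.84 CPM (2.13, 1.35 to 3.43). Csf2rb2 was higher there too, at 1.80 and 4.62 CPM (2.56, 1.65 to 4.07). In EC-like cells 1 of 9 signalling genes, 1 of 3 GM-CSF-induced genes and 1 of 4 inducers and their receptors were higher, beside 5.84% of all genes. These were Jak2 (157 and 247 CPM, ratio 1.57, 1.32 to 1.85), the kinase bound to the beta chain, Pim1 (136 and 219 CPM, ratio 1.61, 1.34 to 1.92) and Il17ra (15.4 and 31.0 CPM, ratio 2.01, 1.19 to 3.35), a receptor through which IL-17A induces Csf3. Tnf was lower in EC-like cells (50.7 and 33.3 CPM, ratio 0.656, 0.423 to 0.985). The MO/MP markers of EC-like cells summed to 822 and 699.9 CPM, lower for 10 of 12, and their smooth muscle/pericyte markers to 970.5 and 648 CPM, lower for 9 of 10. Their FAP markers summed to 1682 and 2174 CPM, a higher sum in dKO although 8 of 12 were lower. The part of these differences in the EC-like values, Csf3 included, was not tested. Among MuSC-like cells, where dKO had 30 cells, Sdc1, a proteoglycan that binds IL-34, was lower (42.8 and 14.5 CPM, ratio 0.340, 0.151 to 0.671), as was Socs3 (66.6 and 21.01 CPM, ratio 0.315, 0.164 to 0.555). Il1r1, the receptor of IL-1, was higher (26.8 and 45.2 CPM, ratio 1.69, 1.04 to 2.68) and Klf4 lower (116 and 72.7 CPM, ratio 0.625, 0.445 to 0.859). In this class 10.4% of 6285 genes were higher and 16.0% lower past the fold. Maf, a macrophage factor, stood at 47.6 and 16.2 CPM (0.340, 0.158 to 0.649), and the 12 MO/MP markers of the same cells summed to 454 and 109.9 CPM, lower for 11 of 12. Their myocyte markers summed to 2743 and 5324 CPM, higher for 7 of 9, their FAP markers to 1498 and 574 CPM, lower for 9 of 12, and their cycling markers to 587 and 354 CPM, lower for 6 of 7. The part of these differences in the MuSC-like values was not tested.

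Other genes shared the members' patterns over 27 sums of class and library, each from at least 20 cells. Likeness was Pearson's r of log2(CPM + 10) over 9382 genes with at least 500 UMIs, a description over sums that share libraries and depth. Most like Csf3 were Selp (r = 0.94), Sele (r = 0.94) and Cytl1 (r = 0.93), all leading genes of EC-like clusters. The sums pool these clusters, so this likeness cannot tell them apart. Genes like Il34 included Arhgef17 (r = 0.99) and Usp2 (r = 0.96). The nearest to Csf1 were Sntb2 (r = 0.85), Rab2a (r = 0.82) and Sar1a (r = 0.81). Among receptors, Csf1r was most like Clec4a3 (r = 0.97), Lyz2 (r = 0.97) and Ccl6 (r = 0.96), and Csf2ra most like Cd300a (r = 0.97), Lilrb4a (r = 0.97) and Alox5ap (r = 0.97). Csf2rb was nearest to Skap2 (r = 0.93), Fes (r = 0.90) and its copy Csf2rb2 (r = 0.88). Genes like Csf3r included Acod1 (r = 0.94) and Cd300lf (r = 0.93). Csf2 had too few UMIs for this comparison.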

How the data were processed

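Droplet-based single-cell RNA-seq (10x Chromium) of hind limb muscle of Ctrl and dKO mice was analysed, 1 library each. The authors deposited raw UMI counts per gene symbol and barcode, filtered to cell barcodes. The submitters' processing notes name Cell Ranger 7.0.0, Seurat 4.3.0, Cufflinks and build mm10, while the matrix headers name Cell Ranger 3.0.2. No mitochondrial gene was listed, so that filter could not act. The total count was 45556596 UMIs in 4527 barcodes for Ctrl and 33815155 in 3483 for dKO.

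Cells with at least 500 genes were kept (4335 and 3329, equal to the cell numbers the study gives after filtering and doublet removal), and the 7.5% with the highest Scrublet score (scanpy 1.11.5) were removed, since its own threshold marked only 4 and 14 cells. Libraries were integrated in Seurat 5.3.0 on 2000 variable genes without the members (4 of which were among them), with 40 dimensions and resolution 0.8. A cluster was named from at least 3 enriched markers; the details of this naming rule were set after the clusters were seen. Raw UMIs were summed per class and library. Intervals are exact Poisson, exact binomial (Clopper-Pearson) or, for ratios, the exact conditional binomial (scipy 1.17.1), at 95%, ratios being given where both libraries together held at least 20 UMIs. No test was made, since each genotype had 1 library. The counting code was tested on simulated data.

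Named genes were the 8 members, list genes past 1.5-fold with at least 50 UMIs (at most 4 per list and class, by size), the 3 most alike genes per member with at least 100 UMIs, and Yy1, some of which are not reported here. Members and lists were chosen with earlier results of these data known. Positions and transcripts are from GENCODE M21 (GRCm38). Alternatives covered doublets, cell filter, variable genes, integration, resolution, scaling, the mean of single-cell CPM and leaving out the top cell.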

Additional observations from a re-analysis of the deposited data

Results flagged for a closer look

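The dKO to Ctrl ratios of Il34 and of Csf3 lay on either side of 1 in different cell classes, counting intervals included. Il34 had a dKO to Ctrl ratio of 1.65 (1.01 to 2.65) in smooth muscle/pericyte-like cells and 0.643 (0.515 to 0.802) in FAP-like cells, but the thinned share of smooth muscle/pericyte-like cells with a UMI was lower in dKO, 12.9% against 18.2%, so no direction is read from that class. Csf3 had a ratio of 1.97 (1.78 to 2.17) in EC-like cells and 26.1 (4.21 to 1076) in Fcna-led cells (11.8 without integration), against 0.0501 (0.0133 to 0.134) in FAP-like cells, where 50 of 77 Ctrl UMIs came from 1 cell. With 1 library per genotype the difference between classes was not tested.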

How the results depend on the processing

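Of 131 dKO to Ctrl ratios recomputed for the 16 members and classes described most fully, 127 stayed inside the counting interval of the reported value, 129 kept their direction and 0 of those past 1.5-fold turned. The exceptions in direction were Csf2ra in MO/MP-like cells, 1.04 with the Fcna-led and Ear2-led clusters counted in and 1.02 as a mean over cells. Csf3 in FAP-like cells had a ratio of 0.371 with doublets kept and 0.288 with at least 200 genes and 1000 UMIs. Without the top cell it was 0.107, and Csf3 in EC-like cells 2.24. Csf1r in Fcna-led cells was 0.829 as a mean over cells. Csf2 in FAP-like cells was 0.224 with doublets kept and 0.254 as a mean over cells. Of 244 other ratios, 233 did so and 237 kept their direction, the exceptions including Csf1 in Fcna-led cells (0.843 without the top cell) and in cycling MO/MP-like cells (3.78 with doublets kept). Csf3 had a ratio of 11.8 in Fcna-led cells without integration and 2.26 in MO/MP-like cells at resolution 1.2. With doublets kept, FAP-like cells held 79.2% and 90.5% of the Csf1 UMIs of Ctrl and dKO, EC-like cells 82.3% and 88.6% of those of Csf3, and MO/MP-like cells 70.7% and 67.7% of those of Csf1r. In dKO the Csf1 share was 92.0% under the wider cell filter and without integration, and the Csf3 share 88.9% under that filter. The Csf1r share of MO/MP-like cells was 75.9% and 73.2% with members among the variable genes, 85.9% and 84.9% at resolution 1.2, and 92.6% and 95.9% with the Fcna-led and Ear2-led clusters counted in, a setting added after seeing the data. The Csf3r share was 63.3% and 76.6% at resolution 1.2, and 66.5% and 79.4% with those clusters. Unthinned, 71.5% and 78.7% of FAP-like cells had a Csf1 UMI, thinned to 1000 UMIs 20.02% and 23.5%, and 13.1% of dKO EC-like cells then had a Csf3 UMI. At 2-fold, 1 signalling gene, 0 GM-CSF-induced genes and 0 inducers were higher in MO/MP-like cells. The cause of these shifts was not tested. At resolution 1.2 the cluster led by Fcna had as many leading MO/MP markers as markers of another class and was counted with the MO/MP-like cells, so Fcna-led cells had no value of their own and the MO/MP-like shares at that resolution include it. No paired analysis was possible because each group had 1 library, and no replicate could be left out.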

Other observations

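The ligand-specific chain of the IL-3 receptor was found in FAP-like cells, where the beta chain was near 0. Il3ra stood there at 38.9 (35.9 to 42.1) CPM in Ctrl and 49.3 (46.0 to 52.8) CPM in dKO, from 626 and 821 UMIs, close to its level in MO/MP-like cells (45.2 and 53.8 CPM) and EC-like cells (32.3 and 43.6 CPM), while Csf2rb was at 2.61 and 1.98 CPM. Il3 itself had 0 UMIs in the kept cells of either library. Il5ra, the matching chain of the IL-5 receptor, had 1 UMI in each library. Sdc1, which encodes a proteoglycan known to bind IL-34, was highest in Ear2-led cells at 146 and 149 CPM, and Ptprz1, another IL-34 receptor, had 52 and 13 UMIs in all, of which 24 and 1 were in MuSC-like cells and 19 and 10 in tenocyte-like cells.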
